A study of Mus musculus with 6 samples.

Results

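Chemokine ligands are small secreted or membrane-held proteins that steer the movement of cells by binding G protein-coupled receptors. The genes described here are *Cx3cl1* (fractalkine) and the other chemokine genes that osteoblasts are known to make, in MC3T3-E1 cells with and without cyanidin-3-O-glucoside (C3G), an anthocyanin pigment of dark fruits. They were chosen by name, as *Cx3cl1*, *Ccl2*, *Ccl7*, *Cxcl1*, *Cxcl5*, *Cxcl12* and *Cxcl16*, and 4 of these 7 were measured among the 11234 genes of the series: *Cx3cl1*, *Cxcl12*, *Ccl2* and *Ccl7*. *Cxcl1*, *Cxcl5* and *Cxcl16* were not analysed here. *Cx3cl1* was put at the head of the group because it was already known to be lower with C3G in these libraries, so its difference between the groups is given as a description with its error and with no test.

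MC3T3-E1 is a mouse pre-osteoblast line of C57BL/6 origin, used here at passage 4. The cells were kept without serum for 24 h. C3G-treated cells then grew in full medium that held C3G at 100 μmol/L, and untreated control cells in that medium with no C3G, each for 24 h. The study also speaks of a vehicle for the controls without naming it in the sources used here, so whether they received one is not known. Each group holds 3 RNA-seq libraries, and all 6 come from this single line. Expression was deposited as FPKM, a fragment count divided by gene length and by the fragments of the library, so levels of different genes can be set side by side. The reads behind a value are unknown. Nothing in the labels says whether the libraries of a group came from separate cultures, so p-values measure the spread between these libraries, which may be technical.

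Fractalkine is the only CX3C chemokine. It is made as a membrane protein with its chemokine domain held on a mucin stalk, and the metalloproteases ADAM10 and ADAM17 cut it free. Its receptor CX3CR1 is carried by monocytes, among them osteoclast precursors, and fractalkine on osteoblasts or vessel walls holds and attracts such cells. CXCL12 keeps haematopoietic stem cells in the marrow through CXCR4 and also binds the scavenging receptor ACKR3. CCL2 and CCL7 draw monocytes through CCR2.

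The class of a chemokine is set by the spacing of the first pair of cysteines in the mature protein, and the coding sequences of the 4 measured genes show it. The stretches below are coding-strand DNA from GENCODE M21 on GRCm38, all within exon 2, with the cysteine codons in capitals.
*Cx3cl1*, chr8:94778039-94778077, plus strand: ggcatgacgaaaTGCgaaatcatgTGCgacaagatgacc
*Cxcl12*, chr6:117171496-117171528, plus strand: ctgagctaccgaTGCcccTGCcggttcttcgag
*Ccl2*, chr11:82036494-82036523, plus strand: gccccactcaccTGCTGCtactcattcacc
*Ccl7*, chr11:82046526-82046555, plus strand: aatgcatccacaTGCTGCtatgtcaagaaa
In *Cx3cl1* 3 codons lie between the cysteines, in *Cxcl12* 1 codon does, and in *Ccl2* and *Ccl7* the cysteine codons touch. The reading frame of *Cx3cl1* spans 395 codons, against 119 for *Cxcl12*, 148 for *Ccl2* and 97 for *Ccl7*. The long frame of *Cx3cl1* also encodes the stalk and the membrane anchor.

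*Cx3cl1* (ENSMUSG00000031778.13) lies at chr8:94772009-94782427 and *Cxcl12* (ENSMUSG00000061353.11) at chr6:117168535-117181367, both on the plus strand. *Ccl2* (ENSMUSG00000035385.5) at chr11:82035571-82037453 and *Ccl7* (ENSMUSG00000035373.2) at chr11:82045712-82047525 are neighbours on the plus strand, with 8259 bases between them. No exon of these 4 genes overlaps another gene, and 0% of the 75-base stretches of their longest transcripts occur in transcripts of other genes.

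The libraries were not alike apart from treatment. Control replicate 1 had the lowest median FPKM of the 6, 5.80 against 6.93 to 7.40 in the others, and listed 71 genes at 0 against 9 to 18. Its log2 values correlated with those of the other libraries at r = 0.886 to 0.939 across genes. Its deviations from the mean of the other libraries of its group rose with GC content (rho = 0.748). So did those of C3G replicate 1 (rho = 0.631). Measured in this way, against means that hold replicate 1, the other libraries fell with GC content. Their rho was -0.692 in control replicate 2, -0.692 in control replicate 3, -0.492 in C3G replicate 2 and -0.469 in C3G replicate 3. Of the pre-osteoblast markers, 7 of 8 were measured and 0 were called between groups, by limma p under 0.05 and a fold of at least 1.2. Over all genes 0.65% were called, so a count of 0 among 7 is no result about these markers. *Col1a1*, the main chain of type I collagen, was at 4432, 942 and 1221 FPKM in the control libraries and at 1478, 923 and 1246 FPKM with C3G. *Col1a2*, the other chain of that collagen, was at 1995, 593 and 742 FPKM in control and at 852, 593 and 735 FPKM with C3G, and *Sparc* (osteonectin) at 901, 548 and 649 FPKM and at 751, 614 and 614 FPKM. All 3 were highest in control replicate 1. *Sp7* (osterix), a defining factor of committed osteoblasts, was low, at 0.24 to 0.86 FPKM. The differences and levels of the 4 ligands are also given without control replicate 1 where they moved. Of the 62 genes measured in the 7 lists of pathway genes, 31 changed the sign of their difference of mean FPKM when that library was left out, so the group means given for those genes carry no direction.

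In untreated cells *Cx3cl1* was the most abundant of the 4 ligands. Its level was 23.97, 22.4 and 27.1 FPKM in control replicates 1 to 3, a mean of 24.5 ± 2.38 FPKM (SD, n = 3). That placed it at rank 1929 of 11234 genes, above 82.8% of them and above the median gene at 7.09 FPKM. *Cxcl12* followed at 7.76 ± 3.05 FPKM (SD, n = 3), at rank 5292. Every control library held more *Cx3cl1* than any held *Cxcl12*. *Ccl7* at 0.827 ± 0.258 FPKM and *Ccl2* at 0.764 ± 0.397 FPKM (SD, n = 3) came last, at ranks 10654 and 10741. Their control libraries overlapped, so these monocyte attractants were not separated from each other, while both lay under every *Cxcl12* value. Without control replicate 1 the control means were 24.8 FPKM for *Cx3cl1*, 9.45 FPKM for *Cxcl12*, 0.988 FPKM for *Ccl2* and 0.906 FPKM for *Ccl7*, which puts *Ccl2* above *Ccl7*.

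*Cx3cl1* was at 6.81, 3.61 and 5.23 FPKM in C3G replicates 1 to 3, a mean of 5.22 ± 1.60 FPKM (SD, n = 3). All C3G libraries lay far under all control libraries: the highest value with C3G, 6.81 FPKM, compares with 22.4 FPKM in the lowest control. The mean with C3G was 21.3% of the untreated mean, a 4.69-fold lower level, and the gene moved from rank 1929 to rank 6775. The fitted difference was -2.06 on the log2(FPKM + 1) scale (SE 0.225, 95% interval -2.60 to -1.53). In bulk RNA, fewer cells that express a gene and less RNA per cell cannot be told apart. This scale understates changes of genes near 1 FPKM.

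Within replicate numbers, C3G replicate 1 held 28.4% of the *Cx3cl1* level of control replicate 1, replicate 2 held 16.1% and replicate 3 held 19.3%. The difference was -2.08 without control replicate 1 (SE 0.228) and -2.26 with replicates 2 and 3 only (SE 0.176). The difference of *Cx3cl1* was thus as large without the library that stood apart. Across all genes the differences ran from -0.29 at the 5th percentile to 0.42 at the 95th, and 1 gene had a more negative difference than *Cx3cl1*.

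**Figure D1:**
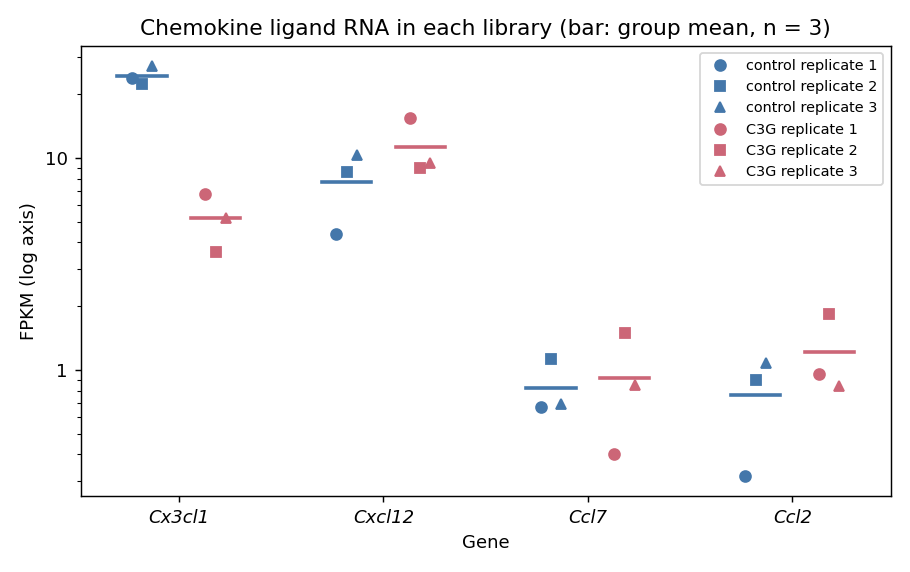
FPKM (log axis) of *Cx3cl1*, *Cxcl12*, *Ccl7* and *Ccl2* in each library, with control in blue, C3G in red, the marker shape giving the replicate number and a bar at the group mean (n = 3). *Cx3cl1* falls from 22.4 to 27.1 FPKM in control to 3.61 to 6.81 FPKM with C3G, while the points of the other 3 genes overlap between groups.

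*Cxcl12* was the other ligand with a level above 1 FPKM in every library. It was at 4.37, 8.59 and 10.3 FPKM in control replicates 1 to 3 and at 15.5, 9.01 and 9.52 FPKM in C3G replicates 1 to 3. The groups overlapped, with the lowest value in control replicate 1 and the highest in C3G replicate 1. The means were 7.76 ± 3.05 and 11.3 ± 3.62 FPKM (SD, n = 3). The difference was 0.53 on the log2(FPKM + 1) scale (SE 0.335, 95% interval -0.27 to 1.32) and did not pass the test, with p = 0.162 and adjusted p = 0.992 by limma and p = 0.4 by an exact permutation test, two-sided, which cannot give a p under 0.1 with 3 libraries against 3. The replicate pairs differed by 1.62, 0.06 and -0.10, so the positive mean rested on replicate 1. Without control replicate 1 the difference was 0.21 (SE 0.233), and with replicates 2 and 3 only it was -0.02 (SE 0.111).

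*Ccl2* was detected at low levels, at 0.317, 0.902 and 1.07 FPKM in control replicates 1 to 3 and at 0.959, 1.84 and 0.840 FPKM in C3G replicates 1 to 3. The groups overlapped, although the highest value was in a C3G library. The difference was 0.33 (SE 0.241, 95% interval -0.25 to 0.90; limma p = 0.220, adjusted p = 0.992; exact permutation p = 0.5, two-sided). Without control replicate 1 it was 0.13 (SE 0.199).

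*Ccl7*, its neighbour, was at 0.668, 1.12 and 0.688 FPKM in control replicates 1 to 3 and at 0.404, 1.503 and 0.851 FPKM in C3G replicates 1 to 3. The C3G values spanned those of the controls on both sides. The difference was 0.04 (SE 0.231, 95% interval -0.51 to 0.59; limma p = 0.868; exact permutation p = 1, two-sided). Without control replicate 1 it was -0.021 (SE 0.244). The intervals of *Ccl2* and *Ccl7* still leave room for changes of either sign, so no difference was detectable at this spread.

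Of the 4 measured ligands, 1 passed the thresholds of limma p under 0.05 and a fold of at least 1.2, and that was *Cx3cl1*, whose known difference fixed this count. Over all genes 73 were called, which is 0.65%, with 45 higher and 28 lower with C3G, or 0.249% lower and 0.401% higher. After quantile normalization the split was 30 higher and 30 lower, and after a correction for GC content 67 higher and 68 lower. Non-overlapping groups, as *Cx3cl1* had, were found for 4.02% of all genes, and all C3G libraries lay under all control libraries for 1.48%. By limma, 0 genes passed the Benjamini-Hochberg adjustment, where 74 had an unadjusted p under 0.05 and the smallest adjusted p was 0.497.

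**Figure D2:**
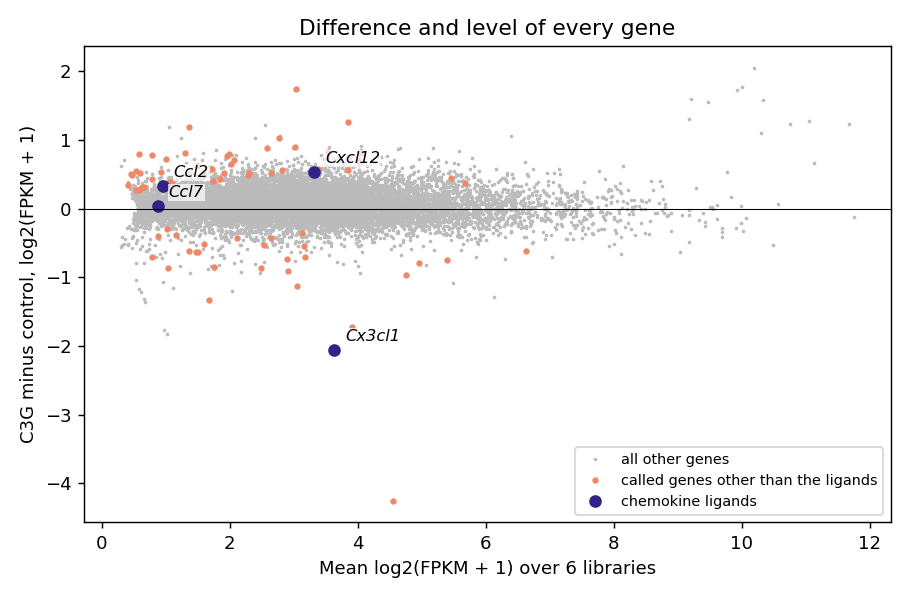
Difference between C3G and control on the log2(FPKM + 1) scale against the mean log2(FPKM + 1) over 6 libraries, with all genes in grey, called genes in orange and the 4 ligands in dark blue. *Cx3cl1* at -2.06 lies outside the main cloud, *Cxcl12* at 0.53 and *Ccl2* at 0.33 lie in its upper part, and *Ccl7* at 0.04 lies near 0.

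The order of the ligands was thereby different with C3G. *Cxcl12*, at 9.01 to 15.5 FPKM, lay above *Cx3cl1*, at 3.61 to 6.81 FPKM, with no overlap. The ratio of *Cx3cl1* to *Cxcl12* was 5.48, 2.61 and 2.63 in control replicates 1 to 3 and 0.439, 0.401 and 0.550 with C3G. The ratio was thus above 1 in every control library and under 1 in every C3G library, and since the fall of *Cx3cl1* chose the gene, it is given as a description.

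Beyond the 4 ligands, 4 of 31 other chemokine ligands were measured: *Ccl6*, *Ccl9*, *Ccl25* and *Ccl27a*. The 8 ligands together summed to 31.9, 36.4 and 42.9 FPKM in control and to 27.9, 20.2 and 21.7 FPKM with C3G. *Cx3cl1* made up 75.1%, 61.6% and 63.2% of this sum in control and 24.4%, 17.9% and 24.1% with C3G. *Cxcl12* made up 20.5 ± 5.85% in control and 48.0 ± 6.54% with C3G (SD, n = 3). These shares are a description: they are tied to the fall of *Cx3cl1*, for which the gene was chosen, and in replicates 2 and 3 the level of *Cxcl12* itself hardly differed between the groups. The other 7 ligands without *Cx3cl1* summed to 7.93, 14.0 and 15.8 FPKM in control and to 21.1, 16.6 and 16.5 FPKM with C3G. These sums did not overlap, but in replicate 3 they lay close together. The widest gap was in replicate 1, where *Cxcl12* was at 4.37 FPKM in control and 15.5 FPKM with C3G.

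**Figure D3:**
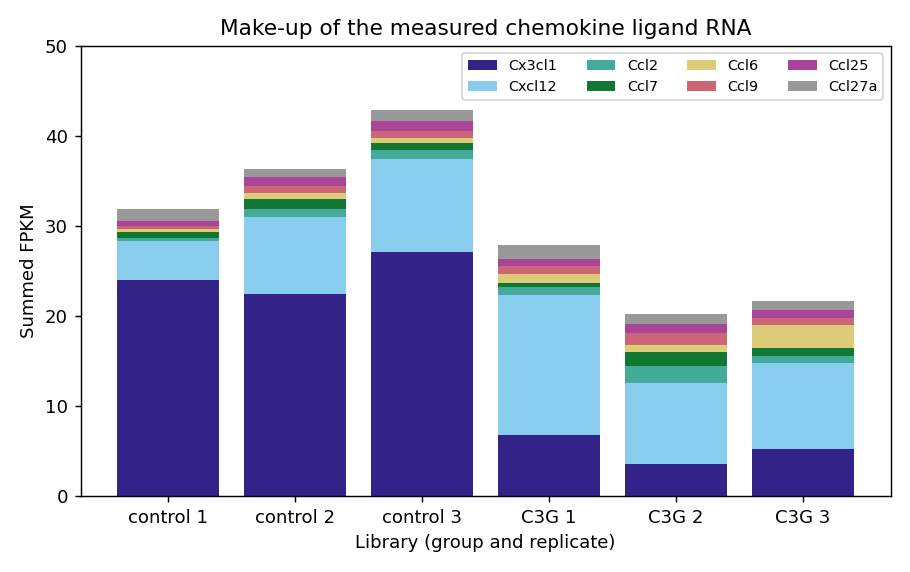
Summed FPKM of the 8 measured chemokine ligands in each library, stacked by gene. The dark blue block of *Cx3cl1* is 61.6% to 75.1% of the bar in control and 17.9% to 24.4% with C3G, where *Cxcl12* in light blue is the largest block.

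None of the other measured ligands was called. *Ccl6*, a CC chemokine of myeloid cells, was at 0.393, 0.598 and 0.617 FPKM in control and at 1.01, 0.788 and 2.56 FPKM with C3G. Its groups did not overlap, as was found for 4.02% of all genes. Its difference of 0.61 (SE 0.265) passed the thresholds in the fit with the replicate number as a block but not without it. *Ccl9*, *Ccl25* and *Ccl27a* had differences of 0.30, 0.02 and 0.05, with overlapping groups. *Ccl27a* shares 57.8% of its 75-base stretches with 4 near-identical genes, so its level is uncertain. On the opposite strand *Ccl27a* overlaps *Il11ra1* and *Ccl25* overlaps *Elavl1*. Whether these overlaps affected the levels in these stranded libraries was not tested.

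Of the chemokine receptors 1 of 23 was measured, *Ackr3*, the CXCL12 scavenger. It was at 8.48, 20.8 and 14.5 FPKM in control replicates 1 to 3 and at 18.3, 22.1 and 13.7 FPKM with C3G, with overlapping groups and a difference of 0.34 (SE 0.333) that did not pass. *Cx3cr1*, *Cxcr4* and *Ccr2*, the main receptors of the ligands described here, were not analysed here.

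Of 8 genes for proteases that shed or trim chemokines and for regulators of these, 7 were measured and 0 were called. Over all genes 0.65% were called, so a count of 0 here or in the lists below is no result about those genes. The regulators were *Timp3* and the inactive rhomboid proteins *Rhbdf1* and *Rhbdf2*. *Adam10*, a sheddase of fractalkine, was at 30.01 ± 12.03 FPKM in control and 33.0 ± 8.27 FPKM with C3G (SD, n = 3), but its control mean was 36.6 FPKM without control replicate 1. *Adam17*, the other sheddase and named for that role, was at 8.22 ± 2.19 and 8.29 ± 1.19 FPKM. *Mmp2*, which cuts CXCL12 and CCL7, stood at 298 and 296 FPKM, and *Timp3*, an inhibitor of ADAM17, at 111 and 123 FPKM, with a control mean of 130.03 FPKM without control replicate 1. The median difference of the list was 0.03, beside 0.06 for all genes. *Ctss*, encoding the lysosomal protease cathepsin S, was at 0.825, 1.36 and 1.25 FPKM in control and at 1.78, 1.65 and 4.83 FPKM with C3G, and it too passed with the replicate block and not without it.

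*Ccl6* and *Ctss* were both highest in C3G replicate 3, and so were the measured macrophage markers. Of 8 such markers 2 were measured, and neither was at 0 in any library. *Lyz2* (lysozyme) was at 32.1, 40.4 and 38.2 FPKM in control and at 52.2, 45.1 and 54.3 FPKM with C3G, a called difference of 0.44 (SE 0.165; limma adjusted p = 0.992; exact permutation p = 0.1, the smallest possible). *Cd68* was at 0.144 to 1.08 FPKM in control and at 0.720 to 1.25 FPKM with C3G. Their summed level was 32.3 to 41.0 FPKM in control and 45.8 to 55.5 FPKM with C3G, and its part in the *Ccl6* and *Ctss* values was not tested. *Ptprc*, *Adgre1*, *Csf1r*, *Itgam*, *Tyrobp* and *Fcer1g* were not analysed here, nor were any of the endothelial, lymphocyte or adipocyte markers. The 2 measured chondrocyte markers, *Sox9* and *Col2a1*, were not called, beside 0.65% of all genes called. *Sox9* was at 106, 48.2 and 56.5 FPKM in control and at 76.4, 49.5 and 56.4 FPKM with C3G. *Col2a1* was at 104, 43.7 and 46.9 FPKM in control and at 35.1, 38.3 and 43.9 FPKM with C3G. Both were highest in control replicate 1.

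Fractalkine and chemokines of the CXC and CC classes act while bound to cell surfaces, through integrins and through heparan sulfate chains. Of 4 integrin genes 3 were measured and 0 called, with *Itgb1* at 169 and 179 FPKM, *Itgav* at 13.2 and 13.9 FPKM and *Itgb3* at 11.3 and 15.9 FPKM in control and C3G. All 14 genes for heparan sulfate core proteins and their synthesis were measured, and 0 were called. Over all genes 0.65% were called, so neither count of 0 is a result about these genes. Their differences ran from -0.23 to 0.29 with a median of 0.05. *Sdc4* and *Sdc2*, syndecans of the cell surface, and *Hspg2* (perlecan) led the list by level, at 154, 74.1 and 95.6 FPKM in control and at 128, 86.4 and 93.2 FPKM with C3G.

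NF-κB drives many chemokine genes in osteoblasts after TNF or interleukin-1. Of 22 genes of this pathway and its usual targets 18 were measured, 9 with a positive and 9 with a negative difference. Of the 18, 0 were called, beside 0.65% of all genes, a share at which 18 genes would rarely hold a call. Their median difference was -0.01. *Csf1*, the osteoclast growth factor M-CSF, was at 60.3 FPKM in control and 56.4 FPKM with C3G. *Vcam1*, an adhesion molecule, was at 23.2, 55.04 and 55.9 FPKM in control replicates 1 to 3 and at 55.5 FPKM on average with C3G. Its control mean of 44.7 FPKM was 55.5 FPKM without control replicate 1. *Nfkb2*, a precursor of an NF-κB subunit, was at 31.0 and 29.7 FPKM in control and C3G.

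Receptors and adaptors of the cytokines that feed this pathway were measured for 15 of 18 genes, and 0 were called, with a median of 0.11. *Tnfrsf1a*, the main TNF receptor, was at 58.5 and 66.9 FPKM and *Tlr2* at 14.8 and 16.9 FPKM in control and C3G. *Il17rc*, an interleukin-17 receptor chain, was at 61.9, 21.4 and 23.3 FPKM in control replicates 1 to 3 and at 24.7 FPKM on average with C3G, and its control mean of 35.5 FPKM became 22.4 FPKM without control replicate 1, under the C3G mean. *Tlr4* passed only with the replicate block, with a difference of 0.67 (SE 0.758 without the block) and values from 0.261 to 7.27 FPKM. Over all 62 measured genes of these 7 lists, 0 were called without the block and 3 with it, *Ccl6*, *Ctss* and *Tlr4*, beside 73 and 169 of all genes, or 0.65% and 1.5%. All 3 were higher with C3G, as were 0.89% of all genes with the block, where 0.614% were lower. With the GC correction and the block together, 0 of the 62 were called.

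**Figure D4:**
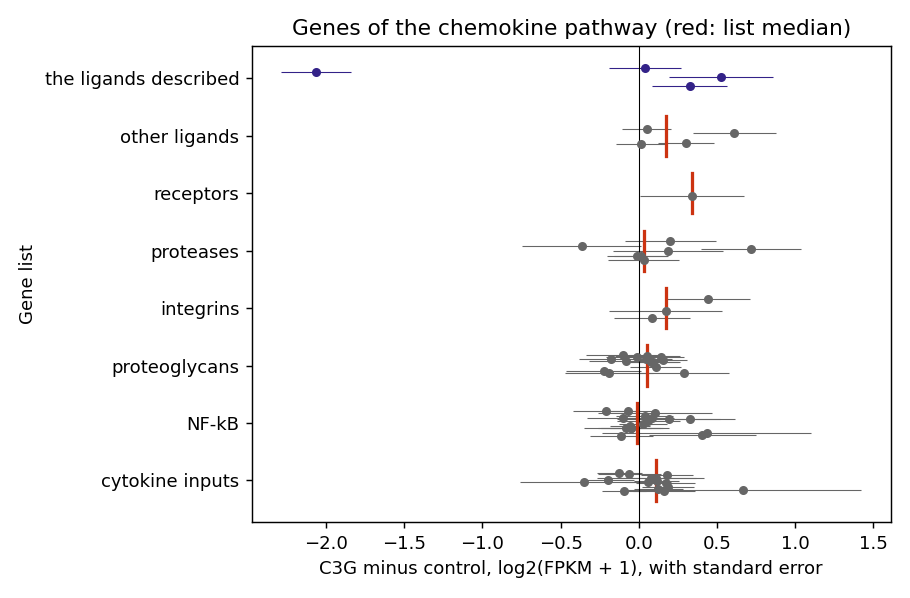
Difference between C3G and control on the log2(FPKM + 1) scale, with its standard error, for the 4 ligands (dark blue) and for the measured genes of 7 lists of the chemokine pathway (grey), with the median of each of those lists in red. *Cx3cl1* at -2.06 stands apart, while the 62 other genes lie between -0.37 and 0.72.

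The region just upstream of the start is shown for the ligands whose promoters were matched in RefSeq on GRCm38.p6, *Cx3cl1* and *Cxcl12*, since they are the pair that changed order. Capitals mark the letters of a GC box (GGGCGG, or CCGCCC on the other strand) and the letters TATAAA.
*Cx3cl1*, chr8:94772150-94772179, plus strand: cggGGGCGGaggctgccagcccatTATAAA
*Cxcl12*, chr6:117168495-117168534, plus strand: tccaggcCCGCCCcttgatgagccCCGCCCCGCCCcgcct
The *Cx3cl1* stretch ends at the base before the RefSeq start, which lies 171 bases inside the GENCODE gene. Its TATAAA lies at bases -6 to -1 from the RefSeq start, directly against it. Whether these letters act as a TATA box was not tested. In windows of 250 bases before to 50 bases after the start, both promoters were 64.7% GC, against a median of 52.7% over 32851 promoters, and held 19 and 20 CG dinucleotides against a median of 7. On either strand, a GC box was present in 35.7% of all promoters of this length and TATAAA in 13.6%. The letters of the CCAAT box (37.4% of promoters), of the AP-1 element TGANTCA (7.81%) and of the NF-κB consensus (8.46%) were not in either window. A match is a description of letters and was not tied to the measured levels. *Ccl2* and *Ccl7* had no entry.

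The genes whose pattern over the 6 libraries was most like that of *Cx3cl1* were *Mast2*, *Wdr5b*, *Tex2*, *Rad1* and *Camk2g*, with Pearson's r of 0.959, 0.935, 0.928, 0.928 and 0.926 among 10463 genes with a mean of at least 1 FPKM. With 3 libraries in each group, any gene that is lower in all C3G libraries scores highly, and the 6 points share the GC pattern above. After the GC correction r was 0.938 for *Tex2* and 0.871 for *Camk2g*, and it was 0.516, 0.569 and 0.473 for *Mast2*, *Wdr5b* and *Rad1*. Their differences were small beside that of *Cx3cl1*: *Camk2g*, a calmodulin-dependent kinase, differed by -0.53 and *Mast2* by -0.16. None of the other ligands followed *Cx3cl1*, with r of -0.58 for *Ccl2*, -0.43 for *Cxcl12* and -0.28 for *Ccl7*.

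**Figure D5:**
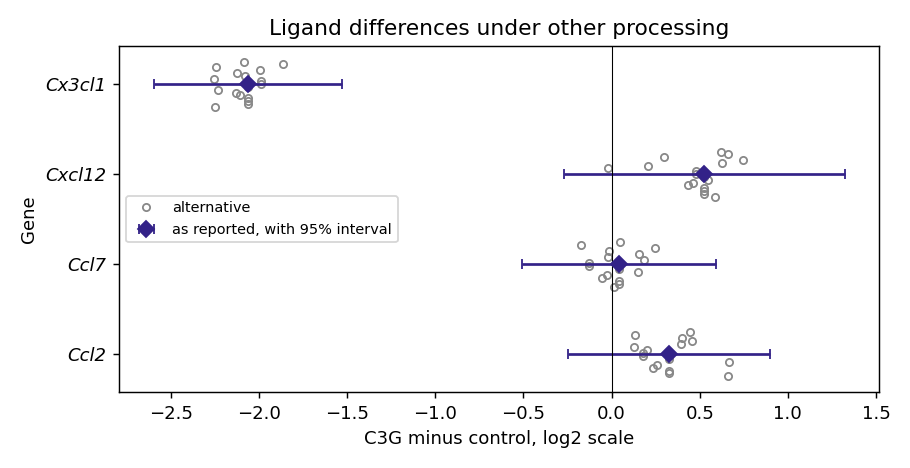
Difference between C3G and control on a log2 scale for each ligand as reported (diamond, bar for the 95% interval) and under each other processing choice (open circles). *Cx3cl1* stays between -2.26 and -1.87, *Cxcl12* lies between -0.02 and 0.74, *Ccl2* between 0.13 and 0.67, and *Ccl7* lies on both sides of 0.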

How the data were processed

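RNA-seq was carried out on 6 MC3T3-E1 libraries, 3 control and 3 treated with C3G, grouped by the sample titles. Total RNA was made into stranded libraries with the KAPA kit. The authors deposited 1 FPKM value per gene and library, calculated with Ballgown, after a FastQC 0.11.8 check. The submitters' processing notes name cutadapt, HISAT2 2.1.0, StringTie, STAR 2.5.2b and the build hg19, while the gene identifiers are those of mouse and carry the version of GENCODE M21 for 9812 of 11234 genes. Identifiers matched a symbol for 11211 genes. Every gene listed had a mean of at least 0.5 FPKM in at least 1 group. The depth is unknown and no counting interval is given.

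Values were fitted as log2(FPKM + 1), without further filter or scaling, over all genes with limma 3.58.1 in R 4.3.3 (lmFit, then eBayes with trend, two-sided), with group as the only term. Genes were called at p under 0.05 and a fold of at least 1.2, the values the study states, and p was adjusted over all genes by the Benjamini-Hochberg method. Single ligands were also compared by the two-sided exact permutation test over libraries. Python 3.11.15 was used for the rest. The fit was tested on simulated data. Deviations from the group means correlated at 0.653, 0.580 and 0.440 between libraries with the same replicate number in their titles. They also correlated at 0.307 between control 2 and C3G 3 and at 0.300 between control 3 and C3G 2. The labels state no pairing, and the numbers were taken to pair the libraries as an assumption. Values with the replicate block are given where they change a call.

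The ligands and the gene lists were chosen with earlier results of these data known. Genes were named as the ligands, the called genes and the 3 highest control levels of each list, and the 5 genes most like *Cx3cl1*. *Adam17*, *Ccl6*, *Ccl9*, *Ccl25*, *Ccl27a*, *Ctss*, *Rhbdf1*, *Rhbdf2*, *Tlr4*, *Sp7*, *Runx2*, *Spp1*, *Postn* and *Cd68* were named once their values were known. The alternatives were another pseudocount, a filter on low values, other variance models, quantile normalization, median centring, the ratio of means, a GC spline with 5 degrees of freedom, the replicate block, replicates 2 and 3 only, and leaving out each library.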

Additional observations from a re-analysis of the deposited data

How the results depend on the processing

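The count of genes called over the whole table, 73, was 48 with an ordinary linear model, 135 with the GC correction, 169 with the replicate block, 246 with both, 191 with replicates 2 and 3 only, and 40 to 144 when 1 library was left out, with 144 without control replicate 1, 127 without control replicate 2, and 45, 40 and 43 without C3G replicates 1 to 3. The difference of *Cx3cl1*, a description since the gene was chosen for it, was -2.26 to -1.87 in the 17 alternatives. *Cxcl12* stayed over the p threshold (limma p 0.081 to 0.853), at -0.022 with replicates 2 and 3 only. *Ccl2* was at 0.13 to 0.67 in 16 alternatives and was not called (limma p 0.139 to 0.596). The sign of *Ccl7* was not stable: its difference was -0.055 after quantile normalization, -0.026 after centring on the median, -0.13 after correcting for GC content and -0.13 when the replicate block was added to that, and -0.17 to 0.25 when 1 library was left out. Among the pathway lists, 1 gene (*Ccl6*) was called with a pseudocount of 0.1, 3 with the replicate block (1 ligand, 1 protease and 1 cytokine input) but 0 with that block after the GC correction, and 0 to 2 when 1 library was left out, the 2 being *Ccl6* and *Ctss* without C3G replicate 2. The replicate block changed no call of *Cxcl12*, *Ccl2* or *Ccl7*. The filter on a mean of at least 1 FPKM removed *Ccl2* and *Ccl7*. As Spearman's rho, likeness to *Cx3cl1* was 0.886 for *Mast2*, 0.943 for *Wdr5b* and 0.771 for *Tex2*, *Rad1* and *Camk2g*, and as r after the GC correction it was 0.516 for *Mast2*, 0.569 for *Wdr5b*, 0.473 for *Rad1* and 0.871 for *Camk2g*. The causes of these changes were not tested. With 3 libraries per group and unknown depth, values near 1 FPKM limit what *Ccl2* and *Ccl7* can show.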

Other observations

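Differences of the genes around *Cx3cl1* were smaller than its own. The choice of *Cx3cl1* fixed this, since only 1 gene of the series had a larger absolute difference. In a window of 500 kb on either side, set after the data were seen, 15 other genes were measured, with differences from -0.35 to 0.23 and a median of 0.02 on the log2(FPKM + 1) scale. Of these 0 were called, beside 0.65% of all genes, a share at which 15 genes would rarely hold a call, so the count says nothing about them. The nearest measured neighbours were *Arl2bp* before it, at 36.5 FPKM in control and 39.0 FPKM with C3G, and *Ciapin1* after it, at 2.02 and 2.25 FPKM. *Ccl7* was the only measured gene in the same window around *Ccl2*, and *Rassf4* the only one around *Cxcl12*, with a difference of 0.25.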
